A study of Mus musculus with 76 samples.

Results

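Mouse 4T1 tumors whose cancer cells carried an inducible human catalase gene were compared with 4T1 tumors whose cells carried a GFP-only version of the vector, to ask how catalase made inside the cancer cells bears on the RNA of the whole tumor. The groups were taken by their labels, 5 tumors of 4T1-CAT cells and 6 of 4T1-control cells, all given alum. These are 11 of the 38 tumors of the study and 22 of its 76 libraries, 2 technical replicate libraries per tumor. 4T1 is a mammary carcinoma line of Balb/c mice, and 500000 cells were placed under the flank skin of Balb/c mice, which the study describes as female and as between 6 and 12 weeks old. Per the labels, a doxycycline (DOX) diet began on day 4, 100 µg of alum, an aluminum salt here without any catalase attached, went into the tumor on day 6, and the tumor was taken on day 8. The text of the study places each of these steps a day later. Both lines came from lentiviral transduction, puromycin selection and sorting of GFP-positive cells, so each is a mixed population, and a difference between the groups cannot be told apart from a difference between the lines as they were made. The catalase in 4T1-CAT cells is the human enzyme without the tail that sends it to the peroxisome, and it is expressed together with GFP under a DOX-inducible promoter. The count table holds mouse genes only, so neither human *CAT* nor GFP was measured.

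Catalase splits hydrogen peroxide into water and oxygen and normally works inside peroxisomes. Hydrogen peroxide comes from the NADPH oxidases of phagocytes, from mitochondria and from protein folding, and peroxiredoxins and glutathione peroxidases also remove it. A flank tumor also holds host cells, among them fibroblasts, vessels, fat, the muscle and skin next to it, and infiltrating leukocytes, and RNA of the whole tumor mixes them all.

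The total counts of the 5 4T1-CAT tumors were 5576328, 4998507, 3832772, 6862530 and 2236549. Those of the 4T1-control tumors lay between 493086 and 4569525, with the lowest in replicate 2. Of the 12 4T1-control libraries, 4 held fewer than 518752 counts, which is 0.25 of the median library of the study, and 0 of the 10 4T1-CAT libraries did. 4T1-control replicate 2 also stood alone on the first principal component of the log2 values, at 136.6, where the other 10 tumors lay between -27.2 and -1.2. That component carried 49.9% of the variance. In 8 of the 11 tumors the first technical library was most like the second library of its own tumor, and in 4T1-control replicates 3, 5 and 6 it was more like that of another control tumor. No label names a library pool, so libraries whose recorded index tags begin alike are taken here as 1 pool. On that reading the first libraries of all 11 tumors are in 1 pool and the second ones in another, and each pool holds both groups. The second libraries of 4T1-CAT replicates 2 and 3 carry the same recorded index tag, yet their counts differed as those of other tumors did (chi-square per degree of freedom 13.21), and each matched its own tumor.

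Transcripts of host cells, summed over all lists, were more abundant in the 4T1-CAT tumors, while the markers of the carcinoma cells themselves lay within the range of the controls when summed. Across 16 marker lists of host cell types, 119 of the 126 genes tested had a higher mean in 4T1-CAT, with a median log2 fold change (4T1-CAT over 4T1-control) of 0.54 against -0.01 for all 12534 genes tested. Among single genes, T cell receptor gene *Trbc2*, muscle myosin *Myh4*, serum amyloid *Saa3* and glutathione peroxidase *Gpx7* were higher in all 5 4T1-CAT tumors than in any 4T1-control tumor. All 4 met a naming rule that requires such a gap, which fixes the exact permutation p given for each below. None of these 4 passed the edgeR test across the 12534 genes left by a filter on low counts (adjusted p between 0.363 and 0.477), while DESeq2 called *Trbc2*, *Myh4* and *Saa3* (adjusted p = 0.0139 each) and not *Gpx7* (0.072). Without that filter edgeR called all 4 (adjusted p of 0.0379 or less). It then also called genes whose groups overlapped, so a call in that fit does not require the groups to be apart. Examples are *Cd163* (edgeR adjusted p = 3.13e-09) and *Mcpt8* (edgeR adjusted p = 0.0121, two-sided exact permutation p = 0.113). The genes for removing peroxide, for hypoxia and for glycolysis had medians near 0.

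No gene passed an adjusted p of 0.05 in edgeR's quasi-likelihood test, 0 of 12534 (0%), and the smallest adjusted p was 0.363. At an unadjusted p under 0.05 there were 637 genes, 447 higher in 4T1-CAT (3.57%) and 190 lower (1.52%). For 43 genes every 4T1-CAT tumor lay above every 4T1-control tumor (0.343%), and for 31 every one lay below (0.247%). DESeq2, another count test, called 6 genes on the same counts (0.0479%), namely *Igkc*, *Myh4*, *Saa3* and *Trbc2* as higher and *Bmf* and *Ptpru* as lower. limma voom with quality weights called 0, and 1114 genes had an unadjusted p under 0.05. Within the pool of the first libraries edgeR called 0 genes and 319 had an unadjusted p under 0.05, and within that of the second libraries these were 0 and 577. Without the filter on low counts, edgeR called 131 of 28475 genes (0.46%), 114 higher and 17 lower, of which 112 had also been tested with the filter and 31 belong to host cell lists, all 31 higher. These calls include *Gpx7* and all 6 genes that DESeq2 called. Leaving out 4T1-CAT replicate 3 gave 1 call, the processed pseudogene *Rpl19-ps11*, lower in 4T1-CAT. In that pseudogene 4 of the 4T1-CAT tumors held 0 CPM and replicate 3 held 13.9, against 4.31 to 73 in the controls. CPM are counts scaled to equal tumor totals with TMM factors. They are not per length, so where a gene is called the most abundant of its list, this goes by its counts and is no measured ratio of transcripts. In the text below, a gene called higher or lower has a higher or lower value, with its test beside it.

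Host cell transcripts, summed over all 190 genes of the 16 lists, came to 7631, 8819, 7671, 7464 and 13368 CPM in the 5 4T1-CAT tumors and to between 5918 and 6864 CPM (median 6407) in the 6 controls. The groups did not overlap, and replicate 5 of 4T1-CAT stood well above the other 4. The parts of that sum did overlap. The stromal lists (fibroblast, pericyte and endothelial) came to 4962, 4882, 4029, 4633 and 8099 CPM against 3363 to 4368 CPM, with replicate 3 in the control range. The leukocyte lists came to 1750, 2950, 2701, 2166 and 3619 CPM against 1793 to 2019 CPM, with replicate 1 below every control. Of the 126 host genes tested, 57 were higher at an unadjusted p under 0.05 and 0 were lower, and 4 did not overlap between the groups. In RNA of whole tissue, more cells of a type and more RNA per cell cannot be told apart. By list, 15 of the 16 medians were above 0, the exception being epidermis, with 1 gene tested and a median of -0.06.

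**Figure D1:**
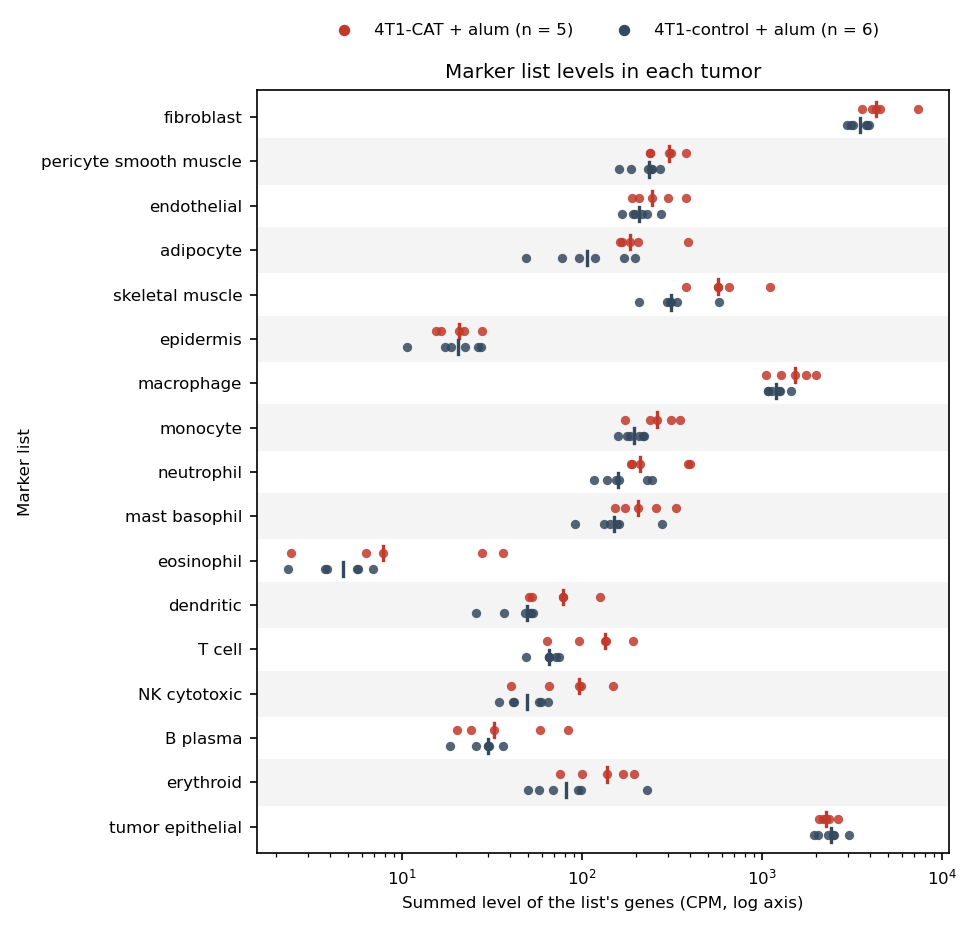
Summed level of the genes of each marker list in each tumor, in CPM on a log axis, with 5 4T1-CAT tumors in red, 6 4T1-control tumors in blue and the group median as a bar. The skeletal muscle and T cell sums sit higher in most 4T1-CAT tumors, while the tumor epithelial sums share 1 range, between 1939 and 3030 CPM.

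Fibroblasts build the collagen matrix of a tumor. All 18 of their genes were tested and all 18 were higher in 4T1-CAT, 10 of them at an unadjusted p under 0.05, with a median log2 fold change of 0.42. The summed level was 4517, 4276, 3603, 4076 and 7344 CPM in 4T1-CAT and 2949 to 3906 CPM in the controls, so that replicate 3 lay inside the control range. *Col3a1*, a fibrillar collagen gene and the most abundant on the list, had 1871, 1628, 1337, 1524 and 3201 CPM against 1012 to 1591 (median 1334). Replicate 5 was the highest and 2 4T1-CAT tumors lay within the control range. Its log2 fold change was 0.53 ± 0.21 (SE; edgeR adjusted p = 0.838, two-sided exact permutation p = 0.0649). *Col1a1*, the other main fibrillar collagen, differed less (log2 fold change 0.34 ± 0.20, adjusted p = 1). *Col14a1* and *Prelp*, which encode a collagen that binds fibrils and a small proteoglycan, had the smallest p on the list. *Col14a1* held 12.9, 19.4, 16.9, 18 and 35.4 CPM against 4.75 to 15 (median 10), with 4 tumors above all controls and a log2 fold change of 1.04 ± 0.29 (adjusted p = 0.611).

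Pericytes and smooth muscle wrap the vessels, and 6 of the 8 genes tested were higher, with a median of 0.39 and sums of 237 to 376 CPM against 160 to 272 CPM. *Acta2*, smooth muscle actin and the most abundant, had a mean of 173 ± 30 CPM (SD, n = 5) against 134 ± 38.6 (SD, n = 6), with 1 tumor just above the highest control (202 against 201 CPM). *Myh11*, the myosin of smooth muscle, held 4.45, 6.85, 4.54, 4.54 and 11.1 CPM against 1.27 to 4.21 (median 1.93). It did not overlap between the groups (log2 fold change 1.45 ± 0.39, adjusted p = 0.611, exact permutation p = 0.00433, the smallest that 5 against 6 tumors can give). Endothelial genes summed to 208, 301, 189, 244 and 379 CPM against 167 to 273 CPM. They had a median of 0.35, with 12 of 13 higher and 1 at an unadjusted p under 0.05, *Plvap*, which forms the diaphragms of vessel pores (log2 fold change 0.81 ± 0.32, adjusted p = 0.851). *Pecam1*, the adhesion molecule by which vessels are usually counted and the most abundant endothelial gene here, was at 53.1, 76.3, 55.1, 64.3 and 84 CPM against 47.5 to 73.6 (median 63.2). Replicates 2 and 5 lay above the highest control and the other 3 within the control range, at a log2 fold change of 0.07 ± 0.16 (adjusted p = 1). Without 4T1-CAT replicate 5 the endothelial median was 0.12, and it was 0.23 without 4T1-CAT replicate 4, 0.22 without 4T1-control replicate 5 and 0.23 without 4T1-control replicate 6.

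Skeletal muscle and fat lie next to a flank tumor, and their genes had the largest medians among the stromal and tissue lists. All 11 muscle genes tested were higher, 8 at an unadjusted p under 0.05, with a median of 1.24, or 0.74 without 4T1-CAT replicate 5. The summed muscle level was 567, 570, 654, 379 and 1109 CPM against 208 to 577 CPM (median 310). Only 4T1-CAT replicates 3 and 5 lay above every control, since 4T1-control replicate 4 held 577 CPM and the other controls at most 335. *Myh4* (chr11:67238029-67260446, GRCm38), the myosin heavy chain of fast fibers, held 10.4, 11, 10.9, 3.94 and 21.5 CPM against 0 to 3.74 (median 2.76). Replicate 4 came closest to the controls, but the groups did not overlap. Its log2 fold change was 2.05 ± 0.41 (edgeR adjusted p = 0.363, DESeq2 adjusted p = 0.0139, exact permutation p = 0.00433). Its neighbors *Myh1* and *Myh2* are close copies, so reads may be shared among them. *Tnnc2*, calcium sensor of fast muscle, held 141, 197, 151, 95.8 and 299 CPM against 33.5 to 143 (log2 fold change 1.28 ± 0.31, adjusted p = 0.503). *Acta1*, skeletal actin and the most abundant muscle gene, averaged 209 ± 91.9 CPM (SD, n = 5) against 102 ± 55.7 (SD, n = 6).

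All 6 adipocyte genes tested were higher, 5 at an unadjusted p under 0.05, with a median of 0.93. Their sum was 162, 205, 184, 166 and 387 CPM against 48.7 to 198 CPM, so that 3 of the 4T1-CAT tumors fell within the range of the controls. *Fabp4*, the fatty acid carrier of adipocytes and the most abundant on the list, held 55.1, 76.9, 51.7, 72.7 and 156 CPM against 17 to 62.3 (median 38.2). In 3 tumors it lay above all controls, at a log2 fold change of 1.08 ± 0.30 (adjusted p = 0.611, exact permutation p = 0.013). *Lpl*, which frees fatty acids from lipoproteins, held 25.6, 26.6, 18.1, 20.9 and 52.9 CPM against 10.1 to 37.2 (median 11.3; log2 fold change 1.07 ± 0.31, adjusted p = 0.622, exact permutation p = 0.0606). Only replicate 5 exceeded 4T1-control replicate 2, while all 5 exceeded the other controls, which held at most 16.7 CPM. Epidermal RNA was scarce. *Krt77*, *Lor* and *Flg*, which mark the outer skin layers, had 0 counts in all 11 tumors, and *Krt10*, the most abundant of the list, averaged 15.8 CPM in each group.

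Macrophage genes summed to 1057, 1755, 1533, 1270 and 1992 CPM in 4T1-CAT against 1075 to 1444 CPM in the controls. 4T1-CAT replicate 1 was lower than every control and 3 others were higher. All 12 genes tested had positive log2 fold changes, with a median of 0.32, or 0.15 without 4T1-CAT replicate 5, and 5 had an unadjusted p under 0.05. *Ms4a7*, the most abundant, averaged 406 ± 95.2 CPM (SD, n = 5) against 312 ± 63.4 (SD, n = 6). *Csf1r*, the receptor that macrophages need to survive, was at a log2 fold change of 0.22 ± 0.21. The scavenger receptor *Cd163*, typical of resident macrophages, held 24.1, 82.4, 20.3, 20.7 and 142 CPM against 7.86 to 26.8 (median 14.1). Replicates 2 and 5 were far above the rest and the other 3 lay within the control range (log2 fold change 1.94 ± 0.50, adjusted p = 0.518). *Cd209d*, a lectin of macrophages, was likewise high in replicates 2 and 5 (22.9 and 33 CPM, against at most 11.6 in the controls).

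Monocyte genes had a median of 0.46, and their sum, 173, 237, 349, 261 and 310 CPM against 158 to 222 CPM, was above all controls in 4 of the 5 tumors. *Ms4a4c*, the most abundant of them, was at 140 CPM in replicate 3 and within the control range, 21.2 to 71.2 CPM, in the other 4. *Ly6c2*, the surface protein of inflammatory monocytes, held 13.2, 30, 35.7, 22.7 and 45.8 CPM against 4.65 to 16.4 (median 9.8). All but replicate 1 exceeded the controls (log2 fold change 1.27 ± 0.28, adjusted p = 0.477), and its reads may be shared with the near copy *Ly6c1*. All 8 neutrophil genes tested had positive values, with a median of 0.56 and sums of 186, 390, 189, 210 and 397 CPM against 116 to 245 CPM. *Cxcr2*, the chemokine receptor that draws neutrophils into tissue, held 60.4, 59.9, 77.7, 59.3 and 83.2 CPM against 17.1 to 62.7 (median 35; log2 fold change 0.83 ± 0.25, adjusted p = 0.658). Only replicates 3 and 5 exceeded the highest control. *S100a8*, an abundant protein of mature neutrophils, stood at 8.41, 12.7, 7.56, 8.63 and 21.1 CPM against 4.82 to 18.6. *Ngp* and *Camp*, granule genes of immature neutrophils, had 0 counts in all 11 tumors, and the most abundant gene of the list was *Mmp9*, a gelatinase that other cells make too.

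Mast cell and basophil genes had a median of 0.71, with 8 of 8 higher. Their sum, 152 to 334 CPM against 91.8 to 277 CPM, overlapped between the groups. *Cma1*, a mast cell protease and the most abundant, differed little (0.23 ± 0.24), whereas *Hdc*, which makes histamine, was at 8.91, 14.7, 5.44, 6.06 and 35 CPM against 2.28 to 8.1 (log2 fold change 1.52 ± 0.47, adjusted p = 0.668). Of 7 eosinophil genes 2 were tested, with a median of 1.93. Of these, *Prg2*, a protein of eosinophil granules and the most abundant, was at 13.7 and 10.7 CPM in replicates 2 and 5, at 0.99, 0.907 and 3.03 CPM in the other 3 and at 0 to 2.53 CPM in the controls. Dendritic cell genes had a median of 0.46, or 0.75 without 4T1-control replicate 1, and summed to 50.6 to 126 CPM against 25.6 to 53.7 CPM. *Cd209a*, their most abundant gene, held 10.6, 31.1, 20.3, 9.69 and 37.8 CPM against 4.36 to 14.8 (log2 fold change 1.26 ± 0.38, adjusted p = 0.661). *Ccr7*, which guides dendritic cells to lymph nodes, had a log2 fold change of 1.36 ± 0.48 (adjusted p = 0.73), with 3 tumors above all controls.

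T cell genes had one of the larger medians, 0.99, with all 10 genes tested higher and 7 at an unadjusted p under 0.05. Their sum was 63.5, 134, 136, 95.7 and 191 CPM against 48.5 to 74.4 CPM (median 65.8). Replicate 1 lay within the control range and the other 4 above it. *Trbc2* (chr6:41546730-41548352), a constant region of the T cell receptor beta chain and the most abundant on the list, held 13.9, 28.2, 33, 17.1 and 39.8 CPM against 8.76 to 13.4 (median 10.7). The groups did not overlap, with replicate 1 just above the highest control. Its log2 fold change was 1.30 ± 0.26 (edgeR adjusted p = 0.363, DESeq2 adjusted p = 0.0139, exact permutation p = 0.00433). Its near copy *Trbc1* may share its reads. The adhesion receptor *Cd2* had 3.63, 11.6, 12.1, 7.72 and 17.9 CPM against 2.54 to 6.98 (log2 fold change 1.28 ± 0.36, adjusted p = 0.622). *Foxp3*, the factor of regulatory T cells and named here after its value was seen, averaged 4.83 against 1.59 CPM (log2 fold change 1.53 ± 0.55, adjusted p = 0.736). *Cd3e*, part of the receptor complex, was too low to test, at up to 1.99 CPM.

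Genes of NK and other cytotoxic cells had a median of 0.68, 6 of 7 higher, and summed to 40.2, 98.1, 95.9, 65.1 and 148 CPM against 34.5 to 64.8 CPM. *Gzmb* and *Gzma* encode granzymes, the proteases with which these cells kill, and *Gzmb* was the most abundant of the list. *Gzmb* held 14.7, 29, 28.7, 22 and 54.1 CPM against 6.98 to 26.2 (log2 fold change 0.88 ± 0.34, adjusted p = 0.833), and *Gzma* 9.57, 28.2, 19.1, 13.9 and 46.6 CPM against 6.98 to 15.6 (0.97 ± 0.33, adjusted p = 0.715). In both, 3 of the 5 tumors exceeded every control. Among 13 genes of B and plasma cells, which summed to 20.3 to 84 CPM against 18.4 to 36.5 CPM, 3 were tested, and *Cd79a*, a defining B cell gene, had 0 counts. *Igkc* (chr6:70726435-70726966), the kappa light chain of antibodies, held 3.46, 7.05, 5.44, 5.15 and 23.1 CPM against 0.864 to 2.33 (median 1.67). No tumor overlapped with the other group and replicate 5 was the highest by far. The controls were too low to pass the filter on low counts, so *Igkc* was tested only through the 4T1-CAT tumors. The log2 fold change was 2.38 ± 0.50 (edgeR adjusted p = 0.363, DESeq2 adjusted p = 0.0139, exact permutation p = 0.00433). *Ighm*, the IgM heavy chain and the most abundant of the list, did not follow it, at 0.16 ± 0.34. The median of the 3 was 0.55, but 0.20 without 4T1-CAT replicate 5 and 1.32, 1.30 and 1.28 without 4T1-control replicate 4, 5 or 6. Erythroid genes had a median of 0.87 over 4 globin genes, of which *Hbb-bs* was the most abundant and whose near copies may share reads. Their sum overlapped widely, at 75.3 to 195 CPM against 50.1 to 228 CPM, with the highest value in 4T1-control replicate 2.

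**Figure D2:**
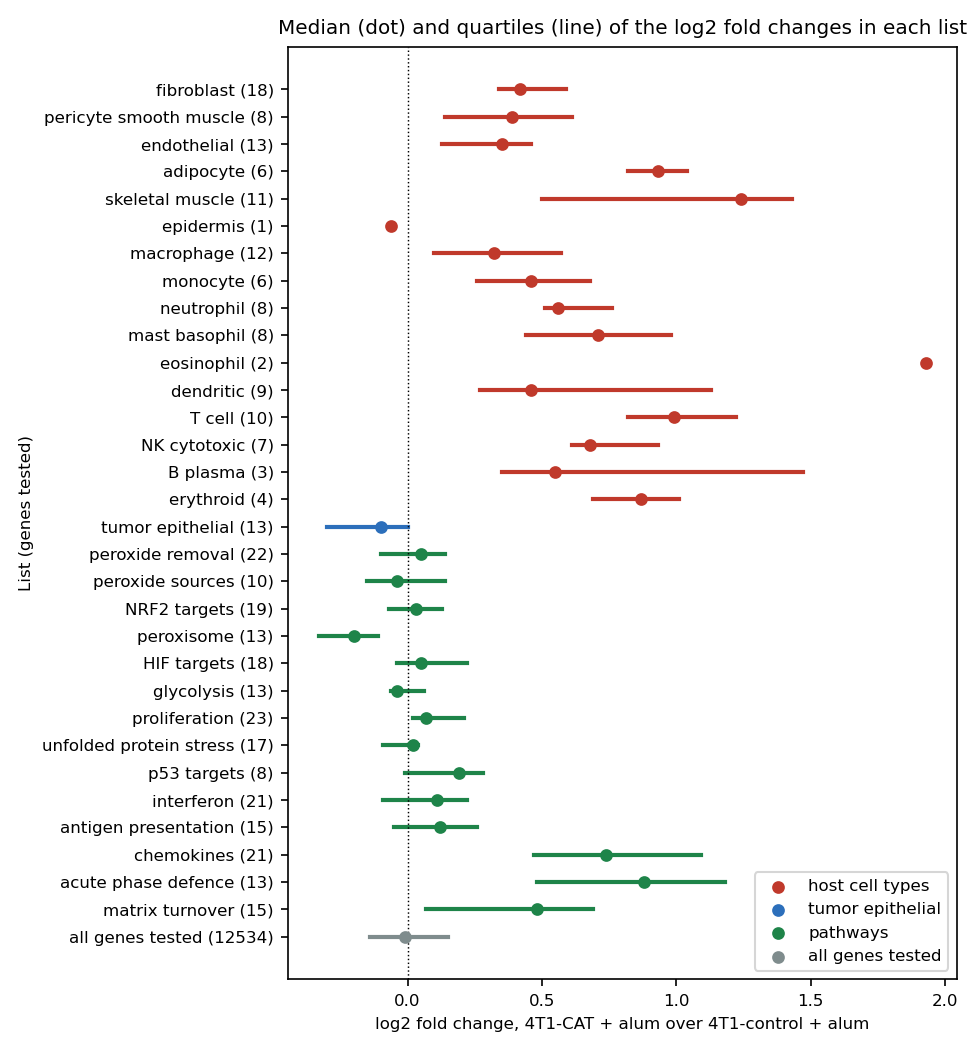
Median (dot) and quartiles (line) of the log2 fold changes of each list, 4T1-CAT over 4T1-control, with the number of genes tested in parentheses. Host lists other than epidermis lie to the right of 0, tumor epithelial at -0.10 and peroxisome at -0.20 to its left, and all genes tested at -0.01.

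4T1 is an epithelial tumor, and its own markers gave no such difference. Of 13 tumor epithelial genes tested 3 were higher and 10 lower, with a median of -0.10 and 1 at an unadjusted p under 0.05. The summed level was 2351, 2631, 2068, 2175 and 2264 CPM in 4T1-CAT and 1939 to 3030 CPM (median 2401) in the controls, so every 4T1-CAT tumor lay within the control range. *Krt18* and *Krt8*, the keratin pair of simple epithelia and the first of them the most abundant gene of the list, had log2 fold changes of -0.05 ± 0.14 and 0.15 ± 0.15 (adjusted p = 1 for each). *Epcam*, the adhesion protein used to mark carcinoma cells, held 279, 235, 193, 212 and 174 CPM against 172 to 399 (median 296). All 5 tumors lay below the control median but inside the control range (log2 fold change -0.42 ± 0.18, adjusted p = 0.926, exact permutation p = 0.108).

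The genes that handle hydrogen peroxide had a median of 0.05 over 22 tested, 12 higher and 10 lower, with 2 higher and 0 lower at an unadjusted p under 0.05. Mouse *Cat*, the endogenous catalase, was at 39.6, 38.2, 36, 35.4 and 34.2 CPM against 36 to 48.2 (median 40.2). The groups overlapped, with 4T1-CAT a little lower (log2 fold change -0.16 ± 0.13, adjusted p = 1, exact permutation p = 0.0736). *Prdx1*, a cytosolic peroxiredoxin and the most abundant of the list, held 3587, 3909, 5550, 4719 and 2845 CPM against 3057 to 5423, a log2 fold change of -0.06 ± 0.19 (adjusted p = 1). Its value was not negative with either technical replicate alone or with either host covariate. *Gpx7* (chr4:108400390-108406961), a peroxidase of the endoplasmic reticulum that passes oxidation on to folding proteins, was 1 of these 2. It held 19.6, 20.9, 22.7, 19.7 and 29.5 CPM against 4.65 to 14.6 (median 12.8). All 5 tumors exceeded all controls, at a log2 fold change of 0.84 ± 0.19 (edgeR adjusted p = 0.477, DESeq2 adjusted p = 0.072, exact permutation p = 0.00433). *Gpx3*, the secreted peroxidase of plasma, was the other, at 4.62, 5.87, 3.63, 6.06 and 16.7 CPM against 2.33 to 4.06 (median 3.93). In 4 tumors it lay above all controls, at a log2 fold change of 0.88 ± 0.37 (unadjusted p = 0.0286, adjusted p = 0.877, exact permutation p = 0.0216), which was -0.05 with the stromal and -0.11 with the leukocyte covariate described below.

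Sources of peroxide, mainly subunits of the phagocyte NADPH oxidase, had a median of -0.04 over 10 genes, 0 at an unadjusted p under 0.05. *Cyba* and *Ncf1*, a membrane and a cytosolic subunit, had values of 0.40 ± 0.21 and 0.53 ± 0.29 (adjusted p = 1 for each). Targets of NRF2, the factor that answers oxidative stress, had a median of 0.03, 12 of 19 higher. *Hmox1*, which breaks down heme, lay at 22.4, 14.9, 9.68, 14.5 and 23.9 CPM against 11.2 to 21.5, with 4T1-CAT tumors on both sides of the controls. *Ftl1*, the ferritin light chain, was the 1 target at an unadjusted p under 0.05 and held 830, 921, 1262, 1089 and 689 CPM against 420 to 953 (log2 fold change 0.52 ± 0.21, adjusted p = 0.847). With the stromal and the leukocyte covariate described below, its log2 fold change was 0.99 and 0.92. Among the pathway lists, peroxisome genes were the 1 list with no gene higher, 0 of 13, at a median of -0.20 and with 0 at an unadjusted p under 0.05. Among them *Pex5*, the receptor that brings enzymes such as catalase into the peroxisome, held 19.8, 15.7, 12.7, 18.3 and 16.7 CPM against 11.2 to 31.5 (median 21.1; log2 fold change -0.37 ± 0.21, adjusted p = 1). The groups overlapped.

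Targets of HIF, the factor of the hypoxia response, had a median of 0.05, 10 higher and 8 lower. At an unadjusted p under 0.05, 1 of them was higher and 2 were lower. The values of the 2 fixed examples pointed in opposite directions in the main fit, though not with the leukocyte covariate described below. *Car9*, a carbonic anhydrase on hypoxic carcinoma cells, held 43.5, 40.7, 32.4, 36.8 and 29.1 CPM against 37.2 to 65.1 (median 53.8), with 3 tumors below all controls (log2 fold change -0.47 ± 0.16, adjusted p = 0.71, exact permutation p = 0.0216). *Angptl4*, a lipase inhibitor that fat also makes, held 26.9, 35.4, 18.5, 19.7 and 62.1 CPM against 6.85 to 25.2 (log2 fold change 0.91 ± 0.33, adjusted p = 0.754). Glycolysis genes had a median of -0.04 and 0 of 13 at an unadjusted p under 0.05. *Aldoa*, an aldolase, was close in all tumors, at 766, 776, 778, 719 and 736 CPM against 742 to 845 (log2 fold change -0.09 ± 0.12, adjusted p = 1).

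Proliferation genes were higher in 20 of 23, but by little, at a median of 0.07. That median lay between 0.05 and 0.13 when each tumor was left out in turn. Of the proliferation genes, 2 did not overlap between the groups. *Rrm2*, a subunit of the enzyme that makes deoxynucleotides, held 142, 151, 128, 116 and 157 CPM against 60.5 to 112 (median 95.1; log2 fold change 0.55 ± 0.15, adjusted p = 0.611, exact permutation p = 0.00433). *Cdc25c*, a phosphatase that starts mitosis, held 5.11, 4.89, 6.05, 6.51 and 7.56 CPM against 2.16 to 4.65 (median 2.62; log2 fold change 1.16 ± 0.28, adjusted p = 0.518). Among all groups of this tumor line, the mean of *Cdc25c* was lowest in these controls, with the values given below. *Mki67*, the usual marker of cycling cells, overlapped, at 127 to 184 CPM against 95.9 to 216. Genes of the unfolded protein response had a median of 0.02 and 0 of 17 at an unadjusted p under 0.05. Targets of p53 had a median of 0.19 over 8 genes, with the cell cycle inhibitor *Cdkn1a* at 0.44 ± 0.19 (adjusted p = 0.926).

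Interferon genes had a median of 0.11, 12 of 21 higher, which lay between -0.04 and 0.17 when each tumor was left out in turn. The sum was 813, 880, 1584, 1164 and 774 CPM against 887 to 1237 CPM, with 3 4T1-CAT tumors below and 1 above the controls. *Rsad2*, an antiviral enzyme, was the 1 interferon gene at an unadjusted p under 0.05 (log2 fold change 0.91 ± 0.34, adjusted p = 0.8). Antigen presentation genes had a median of 0.12, between -0.02 and 0.27 when each tumor was left out, with *Ciita*, the master regulator of MHC class II, at 8.74, 8.03, 17.2, 11.8 and 8.76 CPM against 2.33 to 9.47 (0.68 ± 0.31, adjusted p = 0.975).

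Chemokines, acute phase genes and matrix genes were the pathway lists with the largest medians, 0.74, 0.88 and 0.48. Without 4T1-CAT replicate 5 the acute phase median was 0.52 and the matrix median 0.27. Among 21 chemokine genes tested 19 were higher, 12 of them at an unadjusted p under 0.05. *Ccl8*, which attracts monocytes and was the most abundant chemokine, held 2172, 8077, 3634, 3050 and 9573 CPM against 1115 to 2837 (median 2127). Replicates 2 and 5 were the highest, as for *Cd163*, and replicate 1 lay within the controls (log2 fold change 1.36 ± 0.34, adjusted p = 0.518, exact permutation p = 0.0303). *Cxcl5*, a ligand of the neutrophil receptor *Cxcr2*, held 10.9, 18, 15.1, 13.5 and 45.4 CPM against 2.28 to 9.3 (median 7.23). The groups did not overlap (log2 fold change 1.64 ± 0.38, edgeR adjusted p = 0.477, DESeq2 adjusted p = 0.051).

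Of 13 acute phase genes tested 7 were higher and 1 lower at an unadjusted p under 0.05. *Saa3* (chr7:46711998-46715700), a serum amyloid A made at sites of inflammation, held 77.2, 113, 106, 76.2 and 255 CPM against 20.5 to 57.3 (median 52.3). It was higher in 5 of 5 tumors than in any control, most of all in replicate 5. The log2 fold change was 1.49 ± 0.31 (edgeR adjusted p = 0.363, DESeq2 adjusted p = 0.0139, exact permutation p = 0.00433). *Reg3g*, an antibacterial lectin, followed replicates 2 and 5, at 17.3, 61.5, 38.1, 25.1 and 127 CPM against 6.91 to 25.6 (log2 fold change 1.72 ± 0.46, adjusted p = 0.611). The most abundant gene, *Cp*, which oxidizes iron for transport, was lower, at a mean of 83.8 against 123 CPM (log2 fold change -0.54 ± 0.25, adjusted p = 0.976). In the matrix list 12 of 15 genes were higher and 3 lower, 8 and 1 of them at an unadjusted p under 0.05, and the sums overlapped, at 2804 to 4665 CPM against 2405 to 3585 CPM. Its most abundant gene, the matrix glycoprotein *Fn1*, averaged 1057 against 1227 CPM (log2 fold change -0.22 ± 0.18, adjusted p = 1). *Adamts5*, a protease that cuts proteoglycans, held 10.6, 12.9, 9.07, 12.1 and 34.6 CPM against 2.79 to 8.72 and did not overlap (1.37 ± 0.36, adjusted p = 0.604). *Fstl1*, a secreted glycoprotein of mesenchymal cells, held 249, 300, 173, 274 and 571 CPM against 105 to 233 (0.90 ± 0.25, adjusted p = 0.613).

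**Figure D3:**
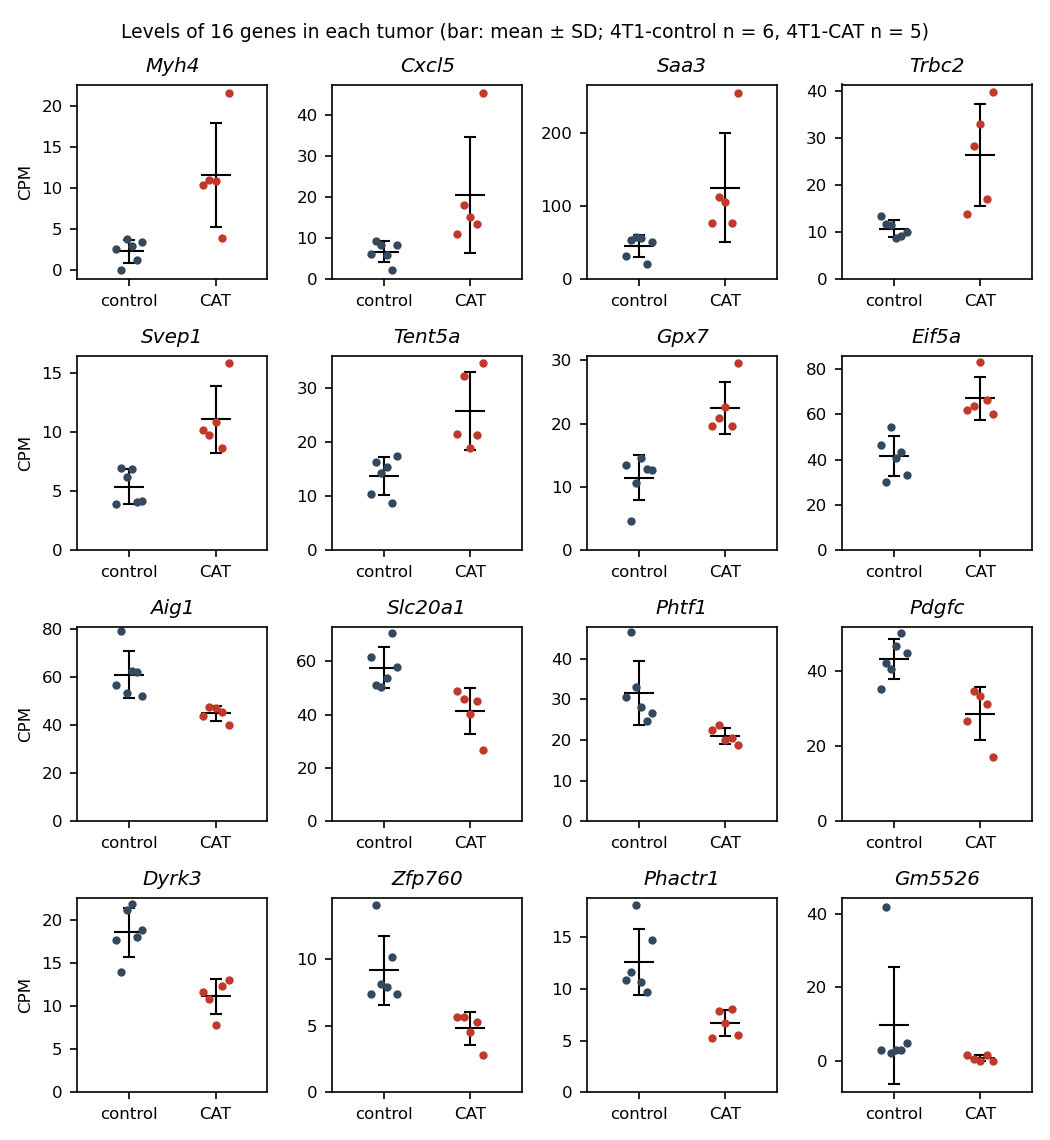
Level of 16 genes in each tumor, in CPM, with 6 4T1-control tumors in blue, 5 4T1-CAT tumors in red and bars for the mean ± SD. The genes have the smallest p in each direction among those with a mean of at least 5 CPM whose groups do not overlap, so the gap between the groups in each panel was a condition for showing it.

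Of the 8 higher genes with the smallest p among those with a mean of at least 5 CPM that did not overlap between the groups, 5 were in a list and are given above, and 3 were in none. *Eif5a*, a translation factor that carries the amino acid hypusine, held 61.8, 63.4, 83.2, 66.2 and 60.1 CPM against 30.2 to 54.5 (median 41.9; log2 fold change 0.66 ± 0.15, adjusted p = 0.477). Its levels in the other 4T1 groups are given below. Processed copies of it lie elsewhere in the genome and may share its reads. *Svep1*, a large matrix protein, held 8.63 to 15.9 CPM against 3.89 to 6.98 (1.07 ± 0.25, adjusted p = 0.493), and *Tent5a*, an enzyme that adds poly(A) tails, 18.8 to 34.6 CPM against 8.63 to 17.3 (0.91 ± 0.22, adjusted p = 0.503). For all 8 the exact permutation p was 0.00433, which the choice of genes without overlap fixes.

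The lower genes without overlap that are named here are in no list. *Dyrk3* (chr1:131127455-131138340), a kinase that dissolves stress granules, held 11.7, 10.8, 7.86, 12.4 and 13.1 CPM against 14 to 21.9 (median 18.5). The gap between the groups was small, at a log2 fold change of -0.78 ± 0.18 (adjusted p = 0.477). *Phactr1*, a regulator of actin and of protein phosphatase 1, held 5.28, 7.83, 6.65, 8.02 and 5.57 CPM against 9.64 to 18.1 (median 11.2; -0.91 ± 0.23, adjusted p = 0.518). *Pdgfc*, a platelet-derived growth factor that acts on mesenchymal cells, held 26.6, 34.5, 33.3, 31.2 and 17.1 CPM against 35 to 50 (median 43.4; -0.59 ± 0.17, adjusted p = 0.622). The phosphate transporter *Slc20a1* held 26.7 to 49 CPM against 50.5 to 70.8 (-0.48 ± 0.16, adjusted p = 0.668). *Aig1*, a hydrolase of fatty acid esters, held 40.2 to 47.6 CPM against 52.2 to 79.1 (-0.41 ± 0.13). *Phtf1* and the zinc finger gene *Zfp760* had log2 fold changes of -0.50 ± 0.16 and -0.80 ± 0.26. The processed pseudogene *Gm5526* was at up to 1.67 CPM in 4T1-CAT and at 2.18 to 41.9 CPM in the controls, with the highest value in 4T1-control replicate 2, the tumor of lowest depth.

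*Bmf* and *Ptpru*, both too low for the naming rule and named because DESeq2 called them, were lower in 4T1-CAT without overlap. *Bmf* (chr2:118528757-118549687), a protein that promotes cell death by binding BCL2, held 1.48, 3.33, 3.02, 2.88 and 1.59 CPM against 4.65 to 9.08 (median 6.83). All 5 tumors lay below all controls (log2 fold change -1.51 ± 0.31, edgeR adjusted p = 0.363, DESeq2 adjusted p = 0.0139). *Ptpru* (chr4:131768457-131838288), a receptor of the tyrosine phosphatase family, held 2.47, 1.57, 0.605, 2.57 and 0.796 CPM against 4.75 to 6.98 (median 6.31). Here too the groups were apart (log2 fold change -1.75 ± 0.36, edgeR adjusted p = 0.363, DESeq2 adjusted p = 0.0139). *Ptpru* passed the filter on low counts through the controls, since most 4T1-CAT tumors lay too low for it.

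To set host content apart from other differences, the fit was repeated with a covariate, the mean log2 CPM of the stromal markers (fibroblast, pericyte and endothelial) or of the leukocyte markers in each tumor. Since both covariates were themselves higher in most 4T1-CAT tumors, such a fit takes out of the group difference whatever runs along with host content, and the part of the transgene in it was not tested. With the stromal covariate edgeR called 0 genes and 1256 had an unadjusted p under 0.05, and with the leukocyte covariate these were 0 and 292. The tumor epithelial median stayed at -0.10 with the stromal and went to -0.15 with the leukocyte covariate. That of chemokines went from 0.74 to 0.27 and -0.03, that of acute phase genes from 0.88 to -0.02 and -0.23, and that of matrix genes from 0.48 to 0.02 and -0.06. The T cell median was 0.45 with the stromal covariate, and the muscle median was 0.47 and 0.24.

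The same fits gave single genes the values below, stromal covariate first. A gene that is itself among the markers of a covariate is adjusted for a mean that contains it, so no such gene is set in this account. The log2 fold change of *Saa3* went from 1.49 to 0.70 and 0.39, that of *Cxcl5* from 1.64 to 0.71 and 0.36, and that of *Ccl8* from 1.36 to 0.68 and 0.07. *Myh4* went from 2.05 to 1.41 and stayed higher in the second fit too (unadjusted p = 0.0167). *Svep1* went from 1.07 to 0.77 and 0.74, *Tent5a* from 0.91 to 0.48 and 0.40, and *Gpx7* from 0.84 to 0.63 and 0.54. *Eif5a* was at 0.71 and 0.67 where it had been at 0.66, and *Cdc25c* at 1.03 and 1.02 where it had been at 1.16. *Rrm2* went from 0.55 to 0.30 and 0.29, *Adamts5* from 1.37 to 0.42 and 0.32, and *Fstl1* from 0.90 to 0.09 and 0.07. *Ftl1* went up, from 0.52 to 0.99 and 0.92 (edgeR unadjusted p = 5.82e-05 and 0.0065). Among the lower genes, *Dyrk3* went from -0.78 to -1.01 and -0.89, *Phactr1* from -0.91 to -1.06 and -1.12, *Bmf* from -1.51 to -1.43 and -1.72, and *Ptpru* from -1.75 to -1.57 and -1.19. Of the others, *Pdgfc* went from -0.59 to -0.38 and -0.33, *Zfp760* from -0.80 to -0.46 and -0.32, *Slc20a1* from -0.48 to -0.20 and -0.11, *Aig1* from -0.41 to -0.26 and -0.24, *Phtf1* from -0.50 to -0.41 and -0.40, and *Gm5526* from -2.66 to -0.93 and -0.51. All of these genes kept their direction in both fits, and 0 passed the adjusted threshold in either. *Fstl1* was near 0 in both fits, and *Ccl8* and *Slc20a1* were near 0 in the second. *Car9* went from -0.47 to -0.34 and -0.16 and *Angptl4* from 0.91 to 0.04 and -0.05, so the second fit left both below 0. *Reg3g* went from 1.72 to 0.57 and turned to -0.05. With all host list genes removed before scaling, edgeR called 0 of 12387 genes, while 583 had an unadjusted p under 0.05.

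Whether the difference is particular to catalase inside the cells was asked by setting it against catalase injected into unmodified 4T1 tumors, as CAT-ABP, a catalase fused to a peptide that holds it on alum. The difference of the 2 effects, tested as an interaction over 22 tumors, gave 0 of 13584 genes by edgeR and 0 by DESeq2, while 336 had an unadjusted p under 0.05 by edgeR. Without the filter on low counts it gave 5, which are *Gm10778*, *Gm4739*, *Tsix* and 2 gene models named *Zc3h11a*, all named after their values were seen. As read from the index tags, all 6 tumors given CAT-ABP were in other library pools than the 4T1-CAT and 4T1-control tumors, and so were 2 of the 5 unmodified tumors given alum, while the other 3 shared the pools of the engineered tumors. The effect of injected catalase, and with it the interaction, therefore runs in part along with pool, and the part of pool was not tested. The host lists together had a median of 0.54 for intracellular and 0.19 for injected catalase. *Saa3* was at 1.49 for the former and 1.13 for the latter (interaction 0.36, adjusted p = 1), while *Myh4* was at 2.05 and 0.29 (interaction 1.75, adjusted p = 1).

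The same 4T1-CAT cells also formed 5 tumors given CAT-ABP and alum under DOX, which can be set beside 6 unmodified 4T1 tumors given CAT-ABP and alum. These groups differ in the vector, the DOX diet and the library pools as well as in the transgene, since no pool, as read from the tags, held libraries of both, and these cannot be told apart, also for the calls of this comparison. The host lists had a median of 0.03 there, and *Trbc2*, *Myh4*, *Gpx7* and *Saa3* had log2 fold changes of 0.19, -0.02, -0.29 and -0.48. The median there was -0.24 for tumor epithelial genes, -0.36 for interferon genes and 0.17 for chemokines. *Dyrk3* and *Phactr1* were at 0.02 and 0.04, and *Bmf* and *Ptpru* at -0.10 and -0.28. With all 5 groups of 4T1 tumors on 1 scale, the host sum was 7851 to 14318 CPM (median 8066) in 4T1-CAT with alum and 6719 to 7617 CPM (median 7352) in 4T1-CAT with CAT-ABP. It was 6276 to 7197 CPM (median 6754) in 4T1-control with alum, 6013 to 8105 CPM (median 6498) in unmodified 4T1 with alum and 6406 to 8870 CPM (median 6946) in unmodified 4T1 with CAT-ABP. The 4T1-CAT tumors with CAT-ABP thus lay below every 4T1-CAT tumor with alum. On that scale *Bmf* was at 1.56 to 3.55 CPM in 4T1-CAT with alum and at 2.83 to 6.34 CPM in 4T1-CAT with CAT-ABP. It was at 4.78 to 9.56 CPM in 4T1-control with alum, and at 6.91 to 11.1 and 0 to 8.29 CPM in unmodified 4T1 with alum and with CAT-ABP. In the same order of groups, mean CPM were 70.8, 74.6, 43.6, 74.6 and 92.4 for *Eif5a*. They were 6.38, 5.6, 3.04, 5.85 and 7.39 for *Cdc25c* and 7.84, 6.92, 3.84, 7.09 and 8.47 for *Gpx3*. Among the genes set out first above, they were 12.2, 7.79, 2.45, 6.6 and 7.91 for *Myh4* and 133, 104, 47.3, 66.3 and 146 for *Saa3*. *Gpx7* had 23.8, 16.3, 12.1, 16 and 20.2, and *Trbc2* had 28, 15.4, 11.3, 9.19 and 13.1. For *Eif5a*, *Cdc25c*, *Gpx3*, *Myh4*, *Saa3* and *Gpx7* the lowest mean was that of 4T1-control. For *Trbc2* it was that of unmodified 4T1 with alum. The highest mean of *Saa3* was in unmodified 4T1 with CAT-ABP.

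In that second comparison edgeR called 2 of 13235 genes (0.0151%), both lower in the engineered tumors, and both are named after their values were seen. They were *Rab25* (log2 fold change -1.42 ± 0.19, adjusted p = 0.0118), an epithelial transport GTPase, and *Rhox5* (-2.83 ± 0.40, adjusted p = 0.0118), a homeobox gene of the X chromosome. Both fell below every unmodified 4T1 tumor given CAT-ABP, at 4.12 to 5.57 against 10.3 to 17.1 CPM for *Rab25* and at 0.317 to 1.17 against 3.36 to 12 CPM for *Rhox5*. The calls were lost without replicate 1, 3 or 4 of those 4T1-CAT tumors (0 genes each) and with a replicate block (0 genes). DESeq2 called 8 genes on the same counts, *Rab25* and *Rhox5* among them, all lower in the engineered tumors. *Cldn3* and *Esrp1*, named after their values were seen, were also among the 8. Like *Rab25* they belong to the tumor epithelial list, whose median there was -0.24. In the tumors given alum alone, *Rab25* was at 0.426 to 6.4 CPM in 4T1-CAT, at 3.5 to 9.1 CPM in 4T1-control and at 7.88 to 21.1 CPM in unmodified 4T1, a difference between lines that was not tested. In the comparison of 4T1-CAT with 4T1-control its log2 fold change was -0.32 ± 0.40 (adjusted p = 1).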

How the data were processed

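The authors made HT3DGE libraries, a modified SCRB-seq method that reads the 3′ end of polyadenylated RNA, and sequenced them on a NextSeq system. The authors deposited an estimated count per gene and library (expected counts) from the Smart-seq2 pipeline on Terra, not normalized, and 39.7% of non-zero values were not whole. The aligner, the build and the use of molecular identifiers are not given in the sources used here. Gene IDs are those of GENCODE M21 (GRCm38). Both libraries of a tumor were added and rounded, so the tumor is the replicate. Of 55536 genes, those passing filterByExpr were scaled by TMM and tested by the quasi-likelihood test of edgeR 4.0.16 (R 4.3.3), with Benjamini-Hochberg adjustment over all genes tested at 0.05. For single genes, log2 CPM (prior count 2) were also compared by a two-sided exact permutation test in scipy 1.17.1. Alternatives used DESeq2 1.42.0 and limma 3.58.1. The fits were checked on simulated data.

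Members and lists were chosen with earlier results of these data known. Some genes of the 31 lists, such as those of matrix and actin, can be expressed by tumor cells too. Named genes were 15 fixed ones, up to 8 in each direction with the smallest p among genes without overlap and with a mean of at least 5 CPM, the 2 with the smallest p in each list and the most abundant of each cell type list. That rule named 93 genes, and 5 more were named after their values were seen (*Bmf*, *Ptpru*, *Rab25*, *Rhox5* and *Rpl19-ps11*). So were *Cp*, *Fn1*, *Foxp3*, *Cldn3*, *Esrp1* and the 5 genes of the interaction.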

Additional observations from a re-analysis of the deposited data

Results flagged for a closer look

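In 124 values, each a gene or list sum within 1 group, 11 had 1 tumor far from the others of its group, and chance flags about 1 in 20 groups. Of these, 5 were in 4T1-CAT replicate 5 and 3 in 4T1-control replicate 2, the tumor with the fewest counts.

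4T1-CAT replicate 5 stood above the other 4 tumors in the fibroblast sum (7344 CPM, others 3603 to 4517), the adipocyte sum (387 CPM, others 162 to 205), *Cd3e* (1.99 CPM, others 0 to 0.392), *Cxcl5* (45.4 CPM, others 10.9 to 18) and *Saa3* (255 CPM, others 76.2 to 113). 4T1-CAT replicate 3 stood above the others in *Eif5a* (83.2 CPM, others 60.1 to 66.2).

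4T1-control replicate 2 stood above the other 5 controls in the erythroid sum (228 CPM, others 50.1 to 98.1), the pseudogene *Gm5526* (41.9 CPM, others 2.18 to 4.84) and *S100a8* (18.6 CPM, others 4.82 to 8.72). 4T1-control replicate 4 stood above the other controls in the skeletal muscle sum (577 CPM, others 208 to 335), and 4T1-control replicate 5 below them in the T cell sum (48.5 CPM, others 65.1 to 74.4).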

How the results depend on the processing

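The count of 0 genes between 4T1-CAT and 4T1-control held with RLE scaling, a mean count of at least 20, 1 model over 7 groups, each technical replicate alone, low-depth libraries left out (which drops 4T1-control replicate 2), limma voom, both host covariates and host genes removed, and with the first libraries of 3 unmatched controls left out, an alternative chosen after seeing the data. It was 6 with DESeq2 and 131 without the filter. More genes of low count were tested there, but 112 of the 131 had also been tested with the filter. It was between 0 and 1 with each tumor left out in turn. With the replicate number as a block it was 0, with 311 genes at an unadjusted p under 0.05, but the numbers do not pair tumors (correlations of same-numbered tumors between -0.38 and -0.027). The interaction gave 5 genes without the filter, 0 with the block and 0 with each tumor left out, also chosen after seeing the data. 4T1-CAT against 4T1 with CAT-ABP gave 2 genes, 8 with DESeq2, 13 without the filter, 0 with the replicate block and between 0 and 2 with each tumor left out. The cause was not tested.

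Signs of named genes that turned, with adjusted p of 0.484 or more in each, were as follows, and the cause was not tested. *Col1a1*, *Col3a1* and *Pecam1* are themselves part of the stromal covariate, and *Cd79b*, *Csf1r*, *Csf3r*, *Gzma*, *Gzmb*, *Ighm*, *Mmp9*, *Prg2* and *S100a8* of the leukocyte covariate, so their values with it rest in part on its construction. With the stromal covariate the log2 fold change was -0.20 for *Col1a1*, -0.06 for *Col3a1*, -0.34 for *Mmp9*, -0.25 for *Csf1r*, -0.05 for *Gpx3* and *Ncf1*, -0.24 for *Hmox1*, 0.56 for *Krt10*, -0.10 for *Krt8*, -0.08 for *Pecam1*, 0.38 for *Prdx1*, 0.35 for *Rab25* and -0.01 for *S100a8*. With the leukocyte covariate it was -0.05 for *Angptl4* and *Reg3g*, -0.19 for *Cd79b*, -0.14 for *Col1a1*, -0.38 for *Csf1r*, -0.16 for *Csf3r*, -0.11 for *Gpx3*, -0.43 for *Gzma*, -0.32 for *Gzmb*, -0.09 for *Hmox1*, 0.57 for *Krt10*, -0.15 for *Krt8*, -0.17 for *Ncf1* and *S100a8*, -0.21 for *Pecam1*, -0.01 for *Plvap*, *Col3a1* and *Ighm*, -0.77 for *Mmp9*, 0.32 for *Prdx1*, -0.54 for *Prg2* and 0.41 for *Rab25*. It was 0.03 for *Krt10* with the block, -0.26 for *Ighm* with limma voom, 0.12 for *Prdx1* with technical replicate 1 alone, and 0.07 for *Krt10*, -0.04 for *Pecam1* and 0.00 for *Prdx1* with technical replicate 2 alone. Leaving out each tumor, it ranged from -0.07 to 0.20 for *Hmox1*, from -0.25 to 0.14 for *Krt10*, from -0.02 to 0.14 for *Pecam1*, from -0.19 to 0.05 for *Prdx1*, from -0.25 to 0.37 for *Ighm*, from -0.11 to 0.03 for *Krt18* and from -0.24 to 0.42 for *Ms4a4c*.

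List medians moved by more than the spread between tumors in 10 of 28 lists with the stromal covariate and in 12 of 22 with the leukocyte covariate. Over fits that each lack 1 tumor, the median stayed between 0.30 and 0.50 for fibroblasts, 0.12 and 0.48 for endothelium, 0.74 and 1.43 for muscle, 0.15 and 0.40 for macrophages, 0.79 and 1.17 for T cells, 0.20 and 1.32 for B and plasma cells, 0.57 and 0.93 for chemokines, 0.52 and 1.08 for acute phase genes, 0.27 and 0.59 for matrix genes and -0.15 and -0.05 for tumor epithelium. Its sign turned for epidermis (-0.25 to 0.14), interferon (-0.04 to 0.17), antigen presentation (-0.02 to 0.27), peroxide removal (-0.04 to 0.11), peroxide sources (-0.06 to 0.04), NRF2 targets (-0.04 to 0.09), HIF targets (-0.01 to 0.12), glycolysis (-0.09 to 0.02) and the unfolded protein response (-0.12 to 0.04). Depth limits genes under about 5 CPM, where 4T1-control replicate 2 holds few counts, and the 3 epidermal and 2 neutrophil markers at 0 were not detectable at this depth.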
